A study of Mus musculus with 4 samples.

Results

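The genes described here are 6 connexin genes of glia, Gjc3, Gja1, Gjb1, Gjc1, Gjb2 and Gjb6, taken by symbol from the 23444 gene symbols of the deposited tables. The members were chosen by name with their FPKM in these 4 libraries already known, so their own differences and counts of calls are given as a description and support nothing. The libraries come from primary mouse oligodendrocyte precursor cells that had differentiated for 1 day under T3, a thyroid hormone that promotes the differentiation of these cells. The genotype of the 2 control libraries is given as lncOL1+/+ and lncOL1+/-, with no statement of which library is which. That of the 2 knockout libraries is lncOL1-/-, and the background of all 4 is mixed. lncOL1 is a long noncoding RNA, and the study asks which genes differ on its loss. The labels do not say that libraries came from separate animals or cultures. Errors here therefore rest only on the spread between these libraries, which may be technical. An SE given for a gene also draws on the spread of other genes, so it is not the spread of that gene alone.

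Connexins are membrane proteins that assemble into hemichannels, and hemichannels of apposed cells dock to form gap junctions, through which ions and small metabolites pass. In the central nervous system, oligodendrocytes and astrocytes are coupled into a glial network that is known for clearing potassium released by active axons. Gjb1 encodes a gap junction protein of oligodendrocytes. Gjc3 encodes a connexin of myelinating glia that is found at the inner myelin membrane and is not known to form classical gap junctions. Gja1 encodes the main astrocyte connexin, Gjb6 and Gjb2 encode further astrocyte connexins, and Gjc1 encodes a connexin best known from heart, vascular muscle and neurons.

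Positions are those of the files (mm10). Gjc3 spans 137953809 to 137962959 of chromosome 5, Gja1 56377300 to 56390419 of chromosome 10, Gjc1 102799478 to 102819686 of chromosome 11 and Gjb1 101377337 to 101385624 of chromosome X. Gjb2 (57098602 to 57104702) and Gjb6 (57123301 to 57133611) are neighbours on chromosome 14, with 18.6 kb between them. This is also the chromosome of lncOL1, whose gene starts 27.3 Mb beyond Gjb6. In the GENCODE annotation the whole coding sequence sits in 1 exon in 5 of the 6 members, as is typical of connexin genes, and in 2 exons in Gjc3. The coding length runs from 678 bases in Gjb2 to 1188 bases in Gjc1. None of the 6 overlaps another gene by the positions in the files (0 overlapping genes).

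The bases before the transcription start are shown for Gjc3, Gja1 and Gjb1, the 3 members expressed at 1 FPKM or more on average. Each is the 250 bases upstream of a RefSeq start (GRCm38.p6), and for Gjb1, which has 4 listed starts, of the start nearest to that of the files. Capitals mark matches, on either strand, to any of 7 motifs.
Gjc3, chr5:137963099-137963348, minus strand: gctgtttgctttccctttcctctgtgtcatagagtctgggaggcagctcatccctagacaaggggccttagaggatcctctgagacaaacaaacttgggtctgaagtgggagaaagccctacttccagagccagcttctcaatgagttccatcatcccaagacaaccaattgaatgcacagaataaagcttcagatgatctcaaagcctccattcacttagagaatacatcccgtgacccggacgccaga
Gja1, chr10:56377050-56377299, plus strand: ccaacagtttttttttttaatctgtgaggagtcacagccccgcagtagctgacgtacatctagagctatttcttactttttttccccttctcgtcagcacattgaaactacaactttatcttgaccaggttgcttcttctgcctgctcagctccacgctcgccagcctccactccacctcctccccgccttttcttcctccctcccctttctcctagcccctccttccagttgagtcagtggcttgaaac
Gjb1, chrX:101376985-101377234, plus strand: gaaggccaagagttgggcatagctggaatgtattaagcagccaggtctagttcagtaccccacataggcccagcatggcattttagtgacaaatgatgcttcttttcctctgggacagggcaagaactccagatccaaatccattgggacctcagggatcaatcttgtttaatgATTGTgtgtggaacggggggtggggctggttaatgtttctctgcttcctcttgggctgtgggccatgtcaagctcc
The motifs were the Sox cores ACAAT and ACAAAG, a core known for the myelin activator Myrf, CTGGCAC, the E-box CAGCTG, the thyroid hormone receptor half-site AGGTCA, the GC box GGGCGG and the TATA box TATAAA. Among 32851 promoter windows of the same length these letters occur in 27.7%, 16.5%, 4.19%, 13.0%, 14.02%, 32.7% and 12.4%, in that order. The 3 windows held 1 match in all, to ACAAT, whose leftmost base lies 76 bases before the Gjb1 start. A match is a description of letters and not a binding site. G and C made up 48.8% of the Gjc3 window and 50% of the Gja1 and Gjb1 windows, against a median of 52.4% over all windows. RefSeq windows were matched for 5 of the 6 members, all but Gjc1.

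Levels are in FPKM, fragments scaled to transcript length and to library size, which adjusts for length and so allows genes to be compared. lncOL1 itself (9630013A20Rik), read as a check of the labels, was at 28.9 and 34.0 FPKM in the controls against 5.54 and 5.06 in the knockouts (limma adjusted p = 0.000389).

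Gjc3 was by far the most abundant transcript of the 6 members. Its level was 28.6 and 33.7 times that of Gja1 in the controls against 38.4 and 38.7 times in the knockouts. Among the members, next came Gja1, then Gjb1, then Gjc1, and in this order no library of one gene reached the values of its neighbour in either group. Gjb2 and Gjb6, the chromosome 14 pair, stayed at or below 0.0582 FPKM in all 4 libraries, and their order could not be told.

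**Figure D1:**
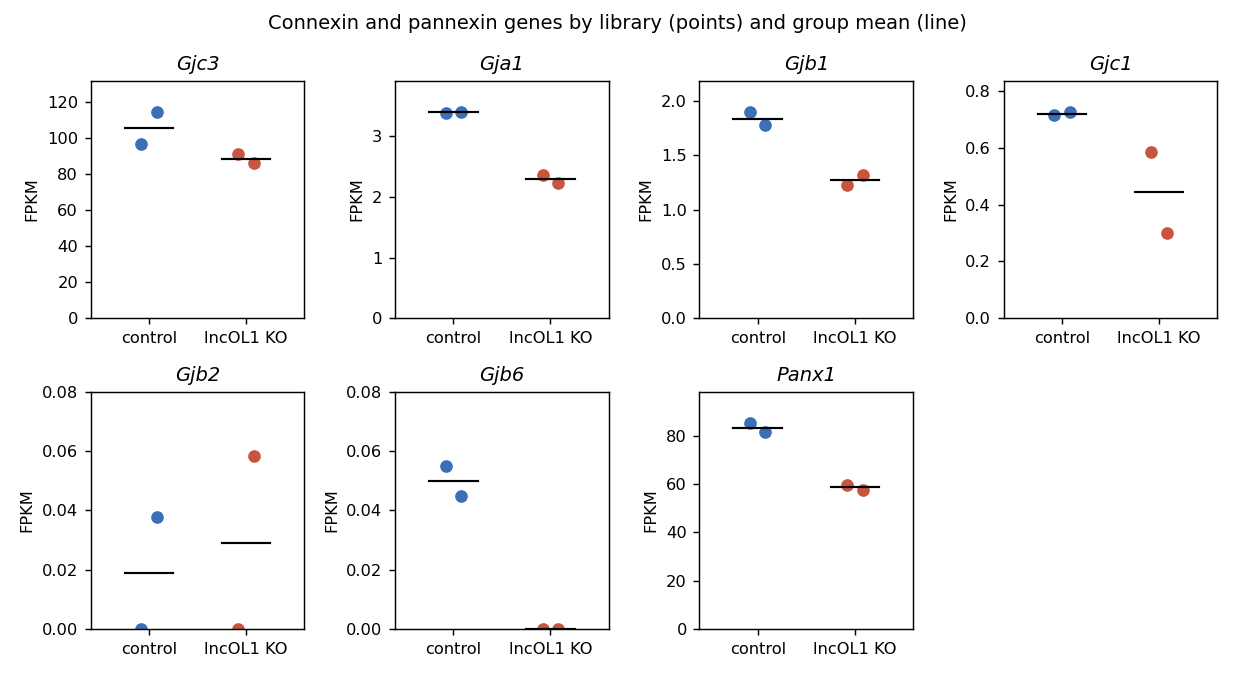
FPKM of the 6 connexin members and Panx1, with 1 panel per gene and its own linear axis from 0. Points are the 2 control and 2 lncOL1 knockout libraries and the line is the group mean. The knockout points lie below the control points in every panel but that of Gjb2, and the values of Gjb2 and Gjb6 lie near 0. Of all genes tested, 20.7% had the knockout lower without overlap, and nothing is read from the panels.

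Gjc3, the connexin of myelinating glia, was slightly lower in the knockout. It was at 96.8 and 114.4 FPKM in the controls against 90.9 and 86.3 in the knockouts. The groups did not overlap, but the control libraries lay further from each other than the nearer of them lay from the knockout. The knockout mean was 83.9% of the control mean, with a log2 difference of -0.25 (SE 0.095, on log2(FPKM + 1)), which was -0.13 without control replicate 2 and -0.37 without control replicate 1. In bulk RNA fewer cells of a type and less RNA per cell cannot be told apart.

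Gjb1, the gap junction connexin of oligodendrocytes known for its mutation in X-linked Charcot-Marie-Tooth neuropathy, was at 1.90 and 1.78 FPKM in the controls against 1.23 and 1.32 in the knockouts. Both knockout libraries were below both control libraries, and the gap was larger than the distance within either group. The knockout mean was 69.3% of the control mean (log2 difference -0.32, SE 0.098). Gjb1 is X-linked, and all 4 libraries held both Xist (20.1 and 23.7 FPKM in control, 16.9 and 19.9 in knockout) and RNA of Y-linked genes. Xist was lower in both knockout libraries than in either control library, at 84.2% of the control mean. The Y-linked Kdm5d (6.57 and 6.69 FPKM in control, 7.81 and 7.21 in knockout) and Eif2s3y (27.1 and 28.04, then 32.8 and 28.5) were higher in both, at 113.2% and 111.2%. The groups overlapped for the Y-linked Ddx3y (8.31 and 9.13, then 9.05 and 7.99) and Uty (3.79 and 4.73, then 4.14 and 4.58). The part of these differences in the Gjb1 value was not tested.

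Gja1, the astrocyte connexin, was at 3.39 and 3.40 FPKM in the controls against 2.37 and 2.23 in the knockouts. The control libraries were nearly equal and both knockout libraries lay below them. The knockout mean was 67.7% of the control mean (log2 difference -0.41, SE 0.085). Gja1 and Gjb1 kept a similar ratio to each other, with 1.78 and 1.91 times as much Gja1 as Gjb1 in the controls against 1.92 and 1.69 times in the knockouts.

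Gjc1 was detected below 1 FPKM in every library, at 0.715 and 0.727 in the controls against 0.587 and 0.300 in the knockouts. Its knockout libraries were both lower, but they differed from each other more than the higher of them differed from control. The log2 difference was -0.26, and it was -0.40 without knockout replicate 1 and -0.12 without knockout replicate 2. Gjb6 was at 0.0549 and 0.0449 FPKM in control and was listed at 0 in both knockout libraries. Gjb2 was listed at 0 in 1 library of each group and was at 0.0378 and 0.0582 in the others, so its groups overlapped. No fold is given for Gjb2 and Gjb6, whose values lie near 0 in both groups.

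Across the genome the knockout was compared with control by limma on log2(FPKM + 1) for 11361 genes whose mean FPKM was 1 or more, and a gene was called at a Benjamini-Hochberg adjusted p under 0.05. Of the members 3 passed this filter, and 0 of these 3 were called, against 1.31% of all genes tested (0.783% called lower and 0.528% higher). At an unadjusted limma p under 0.05 the count was 3 of 3, all lower. Among the 11361 genes tested, 748 (6.58%) were lower and 810 higher at that p. Groups did not overlap, with the knockout lower, in the 3 members tested, against 20.7% of all genes tested. Nothing is read from these counts, since the members were chosen with the same contrast known. The median log2 difference was -0.32 over the 3 members tested and 0.005 over all genes tested. Of all genes tested, 5.06% had a lower log2 difference than Gjc3, 2.94% than Gjb1 and 1.66% than Gja1. These ranks are on log2(FPKM + 1), which understates the change of low genes such as Gja1 and Gjb1 more than that of Gjc3.

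**Figure D2:**
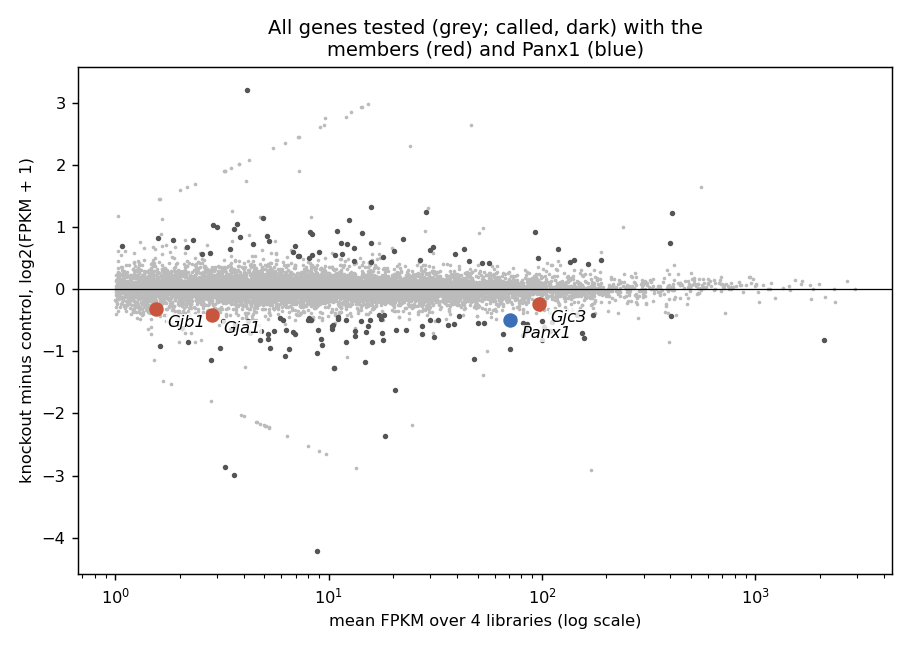
Knockout minus control on the log2(FPKM + 1) scale against mean FPKM (log axis) for the 11361 genes tested, with called genes in dark grey, the 3 members tested in red, and Panx1 in blue. The 4 marked genes all lie below 0, Panx1 the lowest of them at -0.50 on this scale, which understates the change of low genes. As a share of the control mean the knockout was at 70.2% for Panx1, 67.7% for Gja1, 69.3% for Gjb1 and 83.9% for Gjc3.

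The authors' deposited table, a Cuffdiff comparison with 1 pooled FPKM per group, calls 2 of the members lower. For Gjc3 the pooled values in the authors' deposited table are 107.5 and 87.3 FPKM, control first (log2 fold change -0.30, q = 0.000175), and for Gja1 it gives 3.46 and 2.29 (log2 fold change -0.60, q = 0.0159). In the authors' deposited table Gjb1 is at 1.59 and 1.01 FPKM (q = 0.431) and Gjc1 at 0.820 and 0.508 (q = 0.667), neither called, and Gjb2 and Gjb6 were not tested. The limma fit of the same groups differs and called none of Gjc3, Gja1 and Gjb1 (limma adjusted p = 0.322, 0.0884 and 0.216). The authors' deposited table calls 4.04% of its tested genes lower and 1.74% higher. For Gjb1 each pooled value lies below both library values of its group (1.90 and 1.78 in control, 1.23 and 1.32 in knockout). Pooled and library FPKM are therefore not interchangeable, and how they differ varies by gene. For Gjc3 and Gja1 the pooled values lie near the library means (105.6 and 88.6, then 3.39 and 2.30 FPKM, control first). For Gjc1 the pooled control value lies above both control libraries (0.715 and 0.727 FPKM).

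Outside the members, 15 further genes of the connexin and pannexin families are described. Of these 14 were below the filter, and 2 of the 14 (Gjb5 and Gjd3) were listed at 0 in all 4 libraries. The highest value among the 12 connexin genes of this list was 0.184 FPKM. The 1 gene tested was Panx1, which fell in the knockout. Panx1 encodes a channel protein known for release of ATP from cells and is not a connexin. It was at 85.5 and 81.5 FPKM in the controls against 59.6 and 57.6 in the knockouts, and it fell by 0.50 on the log2 scale (SE 0.069, limma adjusted p = 0.0263). The adjusted p of Panx1 was 0.139 to 0.232 with 1 library left out, whichever it was, and 0.0829 with no filter on low values. The authors' Cuffdiff comparison calls Panx1 lower, with pooled values of 71.5 and 47.8 FPKM, control first (log2 fold change -0.58, q = 1.42e-12). That comparison is of the same groups, so it is not separate evidence. The difference between Panx1 and the members was not tested.

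Genes of proteins that bind or regulate connexins showed no call. Of 20 described, 19 were tested, 0 were called by limma in either direction and 3 had an unadjusted p under 0.05, all lower, and the median log2 difference was -0.04. Mapk3, a kinase that phosphorylates the Gja1 protein, was at 162.2 and 166.8 FPKM in the controls against 124.8 and 130.1 in the knockouts (log2 difference -0.37, limma adjusted p = 0.0681). Eps15, an endocytic adaptor, had a log2 difference of -0.38 (limma adjusted p = 0.108). The abundant genes Nedd4, a ubiquitin ligase, and Ctnnb1, beta-catenin, had log2 differences of -0.04 and -0.04 (limma adjusted p = 0.904 and 0.876). With 1 library left out they ranged from -0.09 to 0.02 for Nedd4, above 0 without knockout replicate 2, and from -0.06 to -0.02 for Ctnnb1.

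Genes for potassium and water handling in the glial network gave 0 calls by limma among 7 tested of 8 described, with 1 lower and 0 higher at an unadjusted p under 0.05 and a median log2 difference of -0.006. Kcnj10, the inward rectifier potassium channel of glia, was at 89.8 and 94.2 FPKM in the controls against 91.1 and 86.4 in the knockouts, with overlapping groups (log2 difference -0.05, limma adjusted p = 0.838). The sodium pump subunit gene Atp1b2 had a log2 difference of 0.03, Mlc1, a membrane protein gene of astrocyte junctions, of 0.03, the water channel gene Aqp4 of -0.12 and the cotransporter gene Slc12a2 of -0.22 (limma adjusted p = 0.942, 0.892, 0.639 and 0.217). With 1 library left out the log2 difference ranged from -0.09 to -0.01 for Kcnj10, from -0.07 to 0.12 for Atp1b2, from 0.01 to 0.06 for Mlc1 and from -0.20 to -0.03 for Aqp4. That of Atp1b2 was below 0 without control replicate 1 and without knockout replicate 2.

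Of 16 genes of tight and adhesion junctions 6 were tested, with 0 called by limma, 1 lower and 0 higher at an unadjusted p under 0.05, and a median of -0.05. The lower one was Cldn11, the tight junction claudin of myelin, at 776.3 and 858.1 FPKM in the controls against 600.7 and 647.4 in the knockouts (log2 difference -0.39, limma adjusted p = 0.0977). Jam3, Ctnna1 and Ctnnd1, which encode an adhesion molecule and catenins, had log2 differences of -0.07, -0.14 and -0.02 (limma adjusted p = 0.762, 0.586 and 0.942). With 1 library left out they ranged from -0.14 to -0.005 for Jam3, from -0.22 to -0.05 for Ctnna1 and from -0.07 to 0.02 for Ctnnd1, with the upper value in each case without knockout replicate 2.

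**Figure D3:**
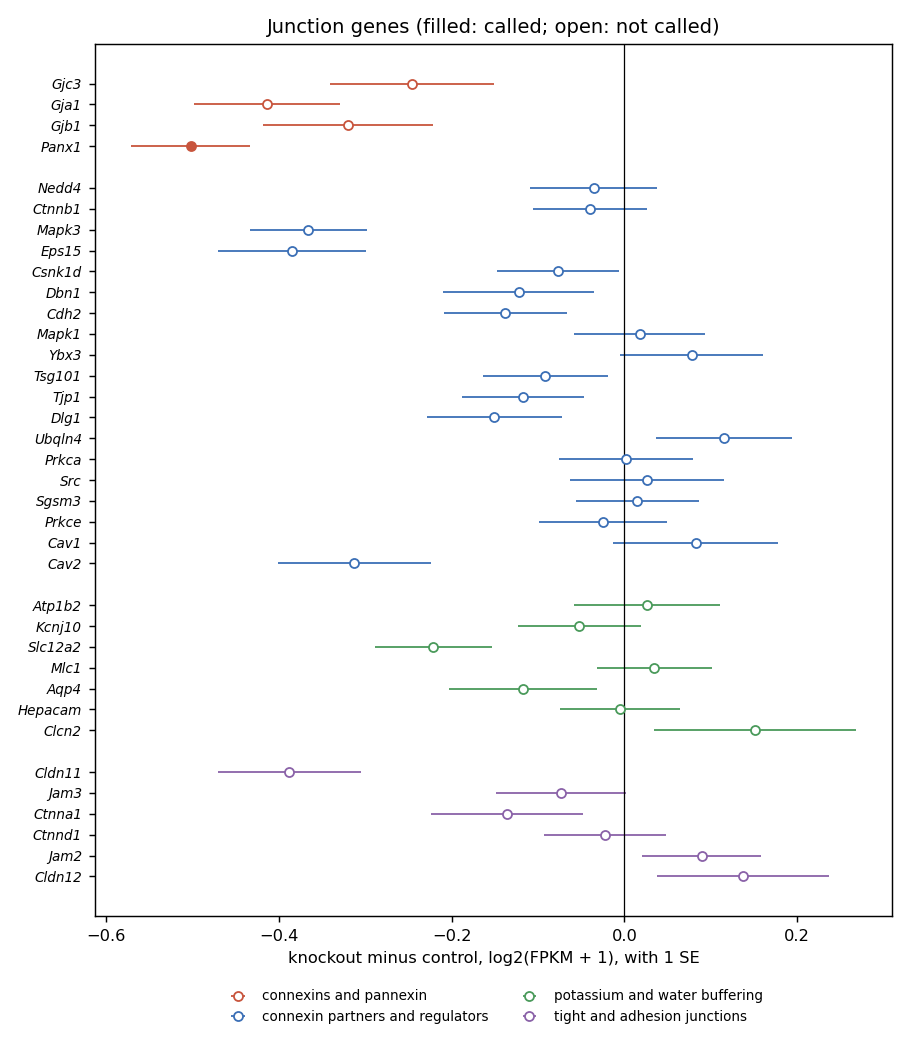
Knockout minus control on the log2(FPKM + 1) scale with 1 SE from the limma fit of 4 libraries, for the tested members, Panx1 and the tested genes of the 3 junction lists, ordered by mean FPKM within a list. The filled point is Panx1, the only gene shown here that was called.

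Markers of the cells in the culture were read beside these values. The 11 oligodendrocyte markers described were all above the filter and summed to 10575 and 10468 FPKM in the controls against 8674 and 8714 in the knockouts. By limma 1 of 11 was called lower and 0 higher, with 5 lower and 0 higher at an unadjusted p under 0.05. The called gene was Mbp, myelin basic protein, at 2683 and 2655 FPKM in the controls against 1501 and 1520 in the knockouts. Of 14 astrocyte markers 13 were tested and 0 called by limma (2 lower and 1 higher at an unadjusted p under 0.05), and their sum was 1002 and 973.0 FPKM in the controls against 961.8 and 927.1 in the knockouts. Gfap, the astrocyte filament gene, was at 236.6 and 210.7 in the controls against 208.2 and 196.3 in the knockouts, so all libraries held astrocyte transcripts, while Gjb6 and Gjb2 were near 0. The 10 meningeal and fibroblast markers, a cell type that also expresses Gja1, summed to 9.18 and 10.01 in the controls against 5.94 and 6.17 in the knockouts. Most of that sum was Islr, Slc6a13 was at 0 in all 4 libraries, and of the list only Islr was tested. Islr was lower in both knockout libraries and was not called (log2 difference -0.56, limma adjusted p = 0.0607). The 12 microglia markers summed to 12.9 and 13.6 in the controls against 27.9 and 33.3 in the knockouts, with 3 of 7 tested called higher by limma (Fcrls, Laptm5 and Tyrobp). The sums of 7 endothelial markers (0.756 and 0.972, then 1.23 and 0.834) and of 6 precursor markers (244.5 and 271.7, then 266.5 and 266.0) overlapped between the groups. The 8 neuron markers summed to 92.1 and 99.4 in the controls against 108.6 and 107.3 in the knockouts, and nearly all of that sum was Map2. Among the other neuron markers, all below 1 FPKM but Snap25, Syt1 and Gad1 were lower in both knockout libraries and Nefl was higher. The groups overlapped for Rbfox3, Snap25, Stmn2 and Slc17a6. From these lists 0 endothelial, 6 precursor and 2 neuron genes were tested and 0 called by limma. At an unadjusted p under 0.05 there were 3, all higher. The limma adjusted p of Mbp was 0.0608 to 0.139 with 1 library left out and 0.140 with no filter on low values. For Fcrls, Laptm5 and Tyrobp it was 0.0204 to 0.111, 0.0642 to 0.111 and 0.0345 to 0.167 with 1 library left out, and 0.0600, 0.0790 and 0.0855 with no filter. The part of these marker differences in the connexin values was not tested.

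As a share of the control mean, the knockout libraries lay at 69.7% and 65.7% for Gja1, 66.9% and 71.6% for Gjb1 and 86.1% and 81.7% for Gjc3. On the same scale the knockout means of the 11 oligodendrocyte markers ran from 56.6% for Mbp to 114.3% for Mog, a myelin surface protein gene, and those of the 13 astrocyte markers tested from 75.1% for Slc1a2, a glutamate transporter gene, to 114.7% for Fgfr3, a growth factor receptor gene. Among the oligodendrocyte markers both knockout libraries lay below both controls in 7, above them in 2 and overlapped in 2. Among the astrocyte markers the counts were 5, 1 and 7, and among all 11361 genes tested they were 2354, 2571 and 6436. The other 2 of the 3 most abundant oligodendrocyte markers described, Sirt2, a deacetylase gene, and Cnp, a myelin enzyme gene, were at 91.9% and 89.3%. The 3 most abundant astrocyte markers, Gfap, S100b, a calcium-binding protein gene, and Aldoc, a glycolytic enzyme gene, were at 90.4%, 92.9% and 99.9%. Gja1, at 67.7%, lay below the mean of each of the 13, but its knockout libraries (69.7% and 65.7%) came close to the lower one of Slc1a2 (80.4% and 69.9%), and the difference was not tested.

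**Figure D4:**
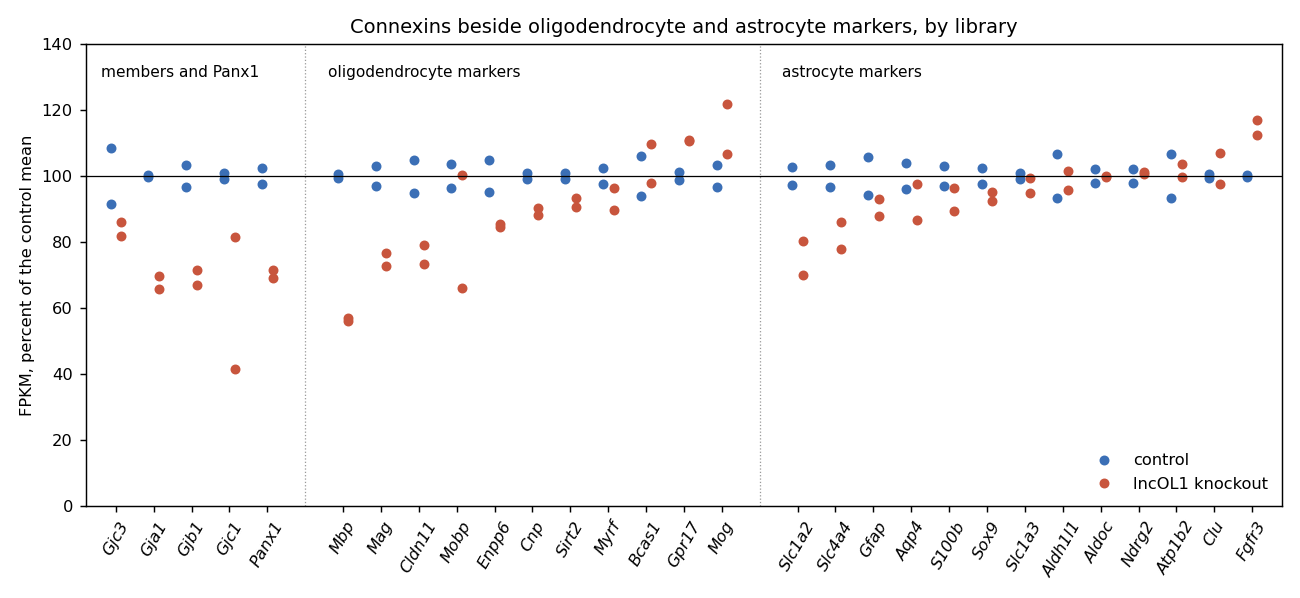
FPKM of each library as a percent of the control mean of its gene, for 4 members, Panx1, 11 oligodendrocyte and 13 astrocyte markers, each marker list ordered by its knockout mean, with the axis from 0. The lowest point is that of Gjc1 in knockout replicate 2, at 41.7%, and both marker lists hold genes on either side of 100%.

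Among all genes tested, those most like each member across the 4 libraries were found by the root mean square difference of centred log2(FPKM + 1). For Gjc3 these were Cd44 and Zfp101 (0.012 and 0.015), for Gja1 Rell1 and Gm9199 (0.010 and 0.015), and for Gjb1 Foxm1 and Hs6st1 (0.007 and 0.013). With 4 libraries many genes share a pattern, and 79, 65 and 128 genes lay within 0.05 of Gjc3, Gja1 and Gjb1.

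The nearest tested genes on both sides of the members gave no call. They lay 19.2 kb (Adam11) and 18.8 kb (Eftud2) from Gjc1, 131.2 kb (Zcwpw1) and 122.1 kb (Zkscan1) from Gjc3, 148.6 kb (Tbc1d32) and 1096 kb (Hsf2) from Gja1, and 56.0 kb (Nlgn3) and 18.8 kb (Zmym3) from Gjb1. For the chromosome 14 pair these were Zmym2, 136.0 kb from Gjb2, and Cryl1, 141.4 kb from Gjb6. Of these 10 genes 0 were called by limma and 2 had an unadjusted p under 0.05, Cryl1 and Zmym3. Cryl1, which encodes a crystallin-like dehydrogenase, was at 5.60 and 5.76 FPKM in the controls against 7.27 in each knockout library (log2 difference 0.31, limma adjusted p = 0.117), and Zmym3, a zinc finger gene, had 0.19 (limma adjusted p = 0.280). Nlgn3 had 0.16 (0.08 to 0.23 with 1 library left out), Zkscan1 0.12 (0.08 to 0.16) and Tbc1d32 -0.13 (-0.18 to -0.09). Adam11, Eftud2, Zcwpw1, Hsf2 and Zmym2 had overlapping groups, and their direction turned with 1 library left out.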

How the data were processed

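RNA of 4 libraries (2 control, 2 lncOL1 knockout) was sequenced from Illumina TruSeq libraries, per the labels' protocols. Cuffdiff, Cufflinks, TopHat and CASAVA and build mm10 come from the submitters' processing notes. For their versions, the annotation and the strand setting nothing is stated in the sources used here. The authors deposited 1 table of FPKM per library, and a Cuffdiff table with pooled FPKM, log2 fold changes, p-values and q-values per the file headers, quoted only as the authors'. Read counts are not given in the files, so precision rests on the spread between libraries. Summed FPKM was 372925 to 382573, and 11284 to 11357 genes reached 1 FPKM per library.

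Of 23444 symbols, 9 with a status other than OK were left out and rows of 1 symbol were summed (258 symbols). For 11361 genes whose mean FPKM was 1 or more, limma 3.58.1 (R 4.3.3) was run on log2(FPKM + 1) (lmFit, eBayes with trend; 2 residual and 4.6 prior degrees of freedom), without covariates, with Benjamini-Hochberg adjustment over all genes. A fold change on this scale understates the change of low genes. The fit was run on simulated data with changes larger than those of the members, so that run does not show whether changes of their size would be called. Named genes are the members, tested family genes, the 4 most abundant and 2 of smallest p in each list, marker genes, nearest tested genes and most alike genes. Mog, Slc1a2, Fgfr3, Xist and the Y-linked genes were named after their values were seen. Some genes of the lists are not reported here and enter no list count or sum. The members and lists were chosen with earlier results of these data known. Alternatives were another pseudocount, no filter, TPM scaling, quantile normalization, symbols of several rows left out, a replicate block and each library left out.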

Additional observations from a re-analysis of the deposited data

How the results depend on the processing

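Gjc3, Gja1 and Gjb1 had a negative log2 difference under all 10 alternatives and were called in none, and Panx1 was lower under all 10 and called in 5. Calls over all genes (149 in all, 60 higher and 89 lower) were 4, 1 and 3 with no filter, and 16 to 42, 11 to 16 and 5 to 26 with 1 library left out, which leaves fewer residual degrees of freedom. Calls in the list of other connexins and pannexins (1) were 0 with no filter and 0 with any 1 library left out. The replicate numbers are shared by the groups only as numbers: deviations of same-numbered libraries correlated at -0.0523. With the replicate block 341 genes were called (158 higher, 183 lower), among them 2 connexin partners (Mapk3 and Eps15) and 1 junction gene (Cldn11), and 0 members. Directions of genes that were not called turned with 1 library left out, with log2 differences from -0.095 to 0.024 for Nedd4, -0.067 to 0.12 for Atp1b2 (also -0.0016), -0.069 to 0.024 for Ctnnd1, -0.15 to 0.069 for Adam11, -0.11 to 0.055 for Eftud2, -0.19 to 0.038 for Zcwpw1, -0.12 to 0.023 for Hsf2 and -0.13 to 0.041 for Zmym2. The cause was not tested. Gjc1 (-0.26) was at -0.65 with a pseudocount of 0.1, at -0.44 with TPM scaling and at -0.40 to -0.12 with 1 library left out. Without read counts, values near 0 such as those of Gjb2 and Gjb6 cannot be given a precision.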
